A study of Rattus norvegicus with 6 samples.

Results

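The response of hypothyroid TRbeta-/- (TRβ-/-) mouse liver to thyroid hormone was read from 2 of the 6 two-colour arrays of the series, both titled as the hepatic effects of T3 after 2 hours in these mice. On each array liver RNA of hypothyroid TRβ-/- mice treated with T3 for 2 hours was hybridised with liver RNA of untreated hypothyroid TRβ-/- mice, so that both channels lack thyroid hormone receptor β and both come from hypothyroid animals. The other 4 arrays compare T3-treated with untreated hypothyroid wild type (WT) mice on 2 arrays, and untreated hypothyroid TRβ-/- with untreated hypothyroid WT mice on 2 arrays. The array holds 6240 rat cDNA clones, and the 1635 clones (26.2%) with a log2 ratio on both TRβ-/- T3 arrays are described here. For the study's T3-treated mice an injection of T3 together with T4 into young adult males of a hybrid strain is described. Their control is named only as hypothyroid, with no vehicle mentioned, so an effect of the injection itself cannot be told apart. The TRβ-/- mice are not described there, nor is the way hypothyroidism was produced. The labels of array 2 name RNA pools on both channels and those of array 1 name livers without a pool, and nothing states that the arrays share RNA. All channels of the other 4 arrays were pools of livers. The organism label reads rat, which is the source of the clones, while titles and study describe mice.

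Triiodothyronine (T3) acts mainly through nuclear receptors that stay bound to DNA with or without hormone. These are encoded by 2 genes, TRα and TRβ. Without hormone a bound receptor can hold a target gene down through corepressors, and hormone exchanges these for coactivators. TRβ is the main form in hepatocytes, where T3 is known to raise genes of lipogenesis, cholesterol handling and fatty acid oxidation, and TRα is present at a lower level. A T3 response in TRβ-/- liver is therefore a response that does not need TRβ. Clones are given by their identifiers on the array, and no clone is assigned to a gene here.

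The direction of the ratios was settled as follows. The channel labels name T3-treated RNA first on array 1 and second on array 2, yet across the 1635 clones the deposited ratios rose and fell together (Pearson's r 0.703, Spearman's rho 0.456, clones of the same hybridisations). Both arrays were thus taken to be deposited in the same direction. Array 2 has the channel order of both WT T3 arrays. Since arrays 1 and 2 rose and fell together despite opposite orders, a shared order is weak evidence of direction. The methods describe dye-swapped hybridisations, with ratios given as treated over untreated. The study's list of genes raised by T3 in WT mice has more entries than there were negative WT clones past 2-fold. Those numbered 25 on both arrays and 44 by the mean. Among WT clones past the rule and measured on all 4 T3 arrays, the 5 highest mean ratios were 9.77, 7.86, 6.82, 5.69 and 4.94. The same values stand in that list as ratios of treated over untreated, so positive WT values were read as higher with T3. A positive TRβ-/- value is on this basis likely, but not certainly, higher with T3. Below, positive and negative mean the sign as deposited. If the sign is the other way, the positive and negative counts on the TRβ-/- arrays by themselves exchange places, while those that set TRβ-/- against WT liver change to other values.

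Coverage differed between the arrays. Array 1 had 2270 clones with a value and array 2 had 1690, with 635 clones on array 1 alone and 55 on array 2 alone. The median SD between the arrays was 0.16 on the log2 scale, and 1122 clones (68.6%) lay within 0.5 of 0 on both. That SD is thus set largely among values near 0, and the order of clones was shared only in part (Spearman's rho 0.456). The arrays differed by more than 1 for 65 clones. The log2 ratios of the 1635 clones had a median of 0.02 and quartiles of -0.18 and 0.21 for the mean of the arrays. Spot intensities were not used here, and precision is limited by having 2 arrays.

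Without TRβ, 46 of 1635 clones were at least 2-fold positive on both arrays and 25 were at least 2-fold negative on both. These are 2.81% and 1.53% of the clones measured. The positive clones had a median log2 ratio of 1.69, which is a ratio of 3.22, with quartiles of 1.42 and 2.80. Among the negative clones the median was -1.48, a ratio of 0.359, with quartiles of -2.02 and -1.24. A single clone, RNABF62, was past 2-fold with opposite signs, at 1.43 on array 1 and -1.01 on array 2. Of the 46 positive clones 39 had an SD between arrays under 0.5, as did all 25 negative clones. Over all 1635 clones the upper quartile of that SD was 0.297, so most clones measured were under 0.5 too. By limma's moderated test of the TRβ-/- ratio against 0, with the spread taken from the 4 T3 arrays, 99 clones (6.06%) were positive and 90 (5.5%) negative at a Benjamini-Hochberg adjusted p under 0.05, and 70 of the 71 clones past the 2-fold rule were among them. With the spread taken from the TRβ-/- arrays alone limma called 43 positive and 29 negative clones, and 65 of the 71. The rule and the test read the same TRβ-/- values, so these overlaps are not separate support for the clones. Arrays that share the same RNA carry hybridisation spread only. For its T3 mice the study describes a pool of treated RNA set against a pool of control RNA. Whether the TRβ-/- arrays share RNA is not stated. The p-values, also those for differences from WT liver below, thus cannot be read as measuring the spread between mice. In liver RNA a change in the cells present and a change in RNA per cell cannot be told apart.

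**Figure D1:**
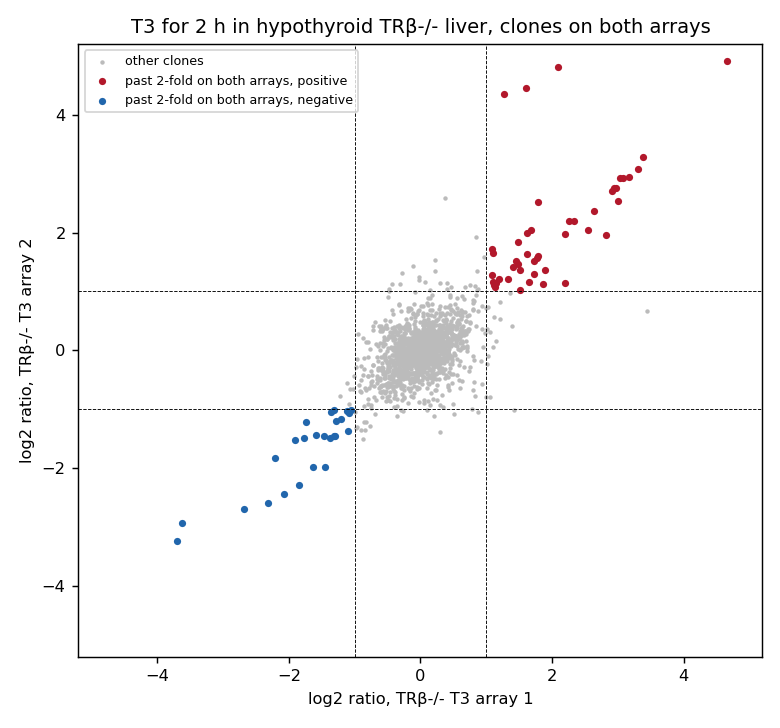
Log2 ratio of each clone on TRβ-/- T3 array 1 (x axis) against array 2 (y axis) for the 1635 clones with both values; dashed lines mark 2-fold on each array, and colours mark the 46 positive and 25 negative clones past both lines. Most coloured clones lie along the diagonal, apart from 3 positive clones that are more than 4 on array 2 but 2.10 or less on array 1.

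The highest clone was RGIAX68. Its log2 ratio was 4.66 and 4.91 on the TRβ-/- arrays, a mean ratio of 27.6 (SD 0.18 on the log2 scale, 2 arrays), with limma's adjusted p of 1.97e-04. It was also the highest of the WT clones measured on all 4 T3 arrays, at 3.22 and 3.35, and all its TRβ-/- values lie above its WT values. RGIAI73 followed among the clones with close arrays, at 3.38 and 3.28 in TRβ-/- liver and 1.75 and 1.94 in WT liver. By limma the difference between genotypes passed for both, at 1.496 for RGIAX68 (SE 0.17, adjusted p = 0.0407) and 1.49 for RGIAI73 (SE 0.16, adjusted p = 0.0389). RGIAI81 and RGIAG17 stand among the 10 highest means because of array 2. RGIAI81 was at 2.10 on array 1 and 4.81 on array 2, and RGIAG17 at 1.61 and 4.45. Their SDs of 1.92 and 2.01 are the widest of the 10, and with the TRβ-/- arrays alone limma's adjusted p was 0.0982 for RGIAI81 and 0.131 for RGIAG17. RGIAB17, named after its values were seen, had the same form, with 1.27 on array 1 and 4.35 on array 2.

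Among the 10 highest means 7 clones read nearly alike, together with RGIAL34. All 8 lie within 0.5 of RGIAJ05 on each of the 6 arrays of the series, and no other clone with values on all 6 does. This set was picked after its values were seen and is described without a test of its own. Their TRβ-/- means run from 2.81 to 3.33 and their WT means from 1.67 to 2.05, with medians of 2.99 and 1.89, which are ratios of 7.95 and 3.71. RGIAJ05 itself was at 3.31 and 3.07 on the TRβ-/- arrays against 2.10 and 1.90 on the WT arrays. In each of the 8 both TRβ-/- values are above both WT values. Limma's test of the difference passed for RGIAI73 alone of the 8, and the adjusted p ran from 0.0389 to 0.102. The clones come from 5 groups of identifiers, and whether they carry the same sequence was not examined, so the 8 may not be separate responses. Without them 38 positive clones remain, with a median log2 ratio of 1.63.

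**Figure D2:**
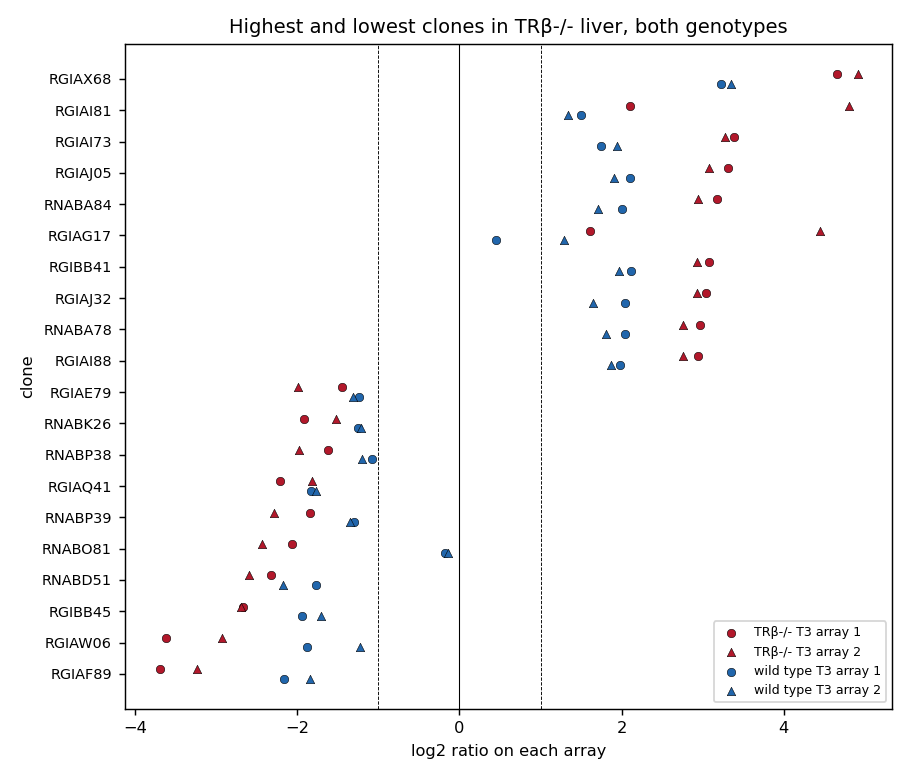
Log2 ratios of the 10 highest and 10 lowest clones in TRβ-/- liver (rows), on both TRβ-/- T3 arrays (red) and both WT T3 arrays (blue); circles are array 1, triangles array 2, and dashed lines mark 2-fold. RGIAI81 and RGIAG17 are the widest apart between TRβ-/- arrays, and RNABO81 is the only row with both WT values within 0.2 of 0.

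On the negative side RGIAF89 was lowest. It had log2 ratios of -3.70 and -3.24 in TRβ-/- liver against -2.16 and -1.85 in WT liver. RGIAW06 was next, at -3.62 and -2.93 in TRβ-/- liver against -1.88 and -1.23 in WT liver. For both the genotypes do not overlap, although limma's test of the difference did not pass (-1.46 with adjusted p = 0.0727, and -1.73 with adjusted p = 0.104). RGIBB45 had the closest arrays of the 10 lowest, with -2.68 and -2.70 in TRβ-/- liver against -1.94 and -1.71 in WT liver. RNABO81 was unlike the other 9: it was at -2.07 and -2.44 in TRβ-/- liver and at -0.18 and -0.15 in WT liver, a difference of -2.09 (SE 0.19, limma's adjusted p = 0.0261). RNABP38 and RNABP39, with neighbouring identifiers, moved together, at means of -1.81 and -2.06 in TRβ-/- liver against -1.14 and -1.32 in WT liver. For the 10 lowest clones limma's adjusted p against 0, taken from the same values that ranked them, ran from 4.28e-04 to 0.00377.

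Clones lay close to the 2-fold boundary on both sides. The positive clones nearest to it from inside were RNABQ42, at 1.52 and 1.03, and RGIAA23, at 1.13 and 1.08. Just outside were RNABX65, at 1.36 and 0.98, and RGIAR17, at 0.97 and 1.59. On the negative side RNABM25 (-1.06 and -1.01) and RGIBA67 (-1.31 and -1.02) were just inside, and RGIAI10 (-0.999 and -1.04) and RNABA95 (-0.98 and -1.31) just outside. Past 2-fold on only one array were 15 clones on array 1 and 25 on array 2 with a positive sign, and 6 and 19 with a negative sign. By the letters that open them the identifiers fall into 65 groups of 96, and 27 groups held a positive clone and 19 a negative one. The most in a group were 5 positive clones of the 49 measured in RGIAJ, and 3 negative clones of the 14 measured in RNABP.

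How far the WT response is seen without TRβ was examined on the 1625 clones with values on all 4 T3 arrays. The TRβ-/- arrays had 46 positive (2.83%) and 25 negative (1.54%) clones past the rule there, against 47 (2.89%) and 18 (1.11%) on the WT arrays. Of the 47 clones raised at least 2-fold in WT liver, 28 were also past 2-fold with a positive sign on both TRβ-/- arrays, 14 were above 0 on both without passing, 1 had mixed signs and 4 were below 0 on both. Over all 1625 clones 35.5% were above 0 on both TRβ-/- arrays. The median log2 ratio of the 47 clones was 1.41 in TRβ-/- liver and 1.74 in WT liver, and limma called 36 of them positive in TRβ-/- liver. These clones were chosen on the WT arrays, a choice that favours larger WT values. Of the 18 clones lowered in WT liver, 13 were past 2-fold negative in TRβ-/- liver and the other 5 were below 0 on both arrays, where 31.1% of all clones lie. Their median was -1.67 in TRβ-/- liver and -1.34 in WT liver, and limma called 15 of the 18 negative in TRβ-/- liver. These overlaps rest on the likely direction: if both TRβ-/- arrays are read with the opposite sign, 1 clone would be shared among the positive and 0 among the negative.

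Seen from the other side, the 46 clones positive in TRβ-/- liver had a median of 1.69 there and of 1.46 in WT liver, and the 25 negative clones medians of -1.48 and -1.07. The TRβ-/- value was the larger in 35 of 46 positive clones chosen on TRβ-/- and in 17 of 47 chosen on WT. Among negative clones it was further from 0 in 23 of 25 chosen on TRβ-/- and in 12 of 18 chosen on WT. A choice on noisy values favours the genotype it was made on, so these medians and counts do not by themselves measure a genotype difference. The 28 clones past the rule in both genotypes, which are 60.9% of the TRβ-/- list and 59.6% of the WT list, had medians of 2.34 in TRβ-/- liver and 1.79 in WT liver. The TRβ-/- mean was larger in 17 of the 28, and in 14 both of its values were above both WT values. The 8 clones that read alike are among the 28 and, as picked, all have the larger mean in TRβ-/- liver. Without them 20 clones remain, 9 with the larger mean in TRβ-/- liver. The medians are then 1.88 in TRβ-/- liver and 1.70 in WT liver. Since the 8 were picked on these same values, leaving them out cannot show what the excess rests on. Of the 13 shared negative clones, 52% of the TRβ-/- list and 72.2% of the WT list, 11 were further from 0 in TRβ-/- liver, with medians of -1.81 in TRβ-/- liver and -1.34 in WT liver.

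Among the clones highest in WT liver, those after RGIAX68 fell into different classes without TRβ. RNABS36 was at 1.78 and 2.51 in TRβ-/- liver against 2.78 and 3.17 in WT liver, and RNABJ21 at 2.19 and 1.97 against 2.49 and 3.05. Both were smaller in TRβ-/- liver on every array, by less than limma's test could separate (adjusted p = 0.334 and 0.323). RNAC07 and RGIAM95 had the opposite sign. On the WT-lowered side RGIAF89, RNABD51, RGIBA89 and RGIBB45 were past 2-fold in both genotypes, and RGIAQ45 was at -0.96 and -0.15 in TRβ-/- liver against -2.06 and -1.70 in WT liver. Its difference did not pass (1.33, SE 0.31, limma's adjusted p = 0.172). RNABD51 and RGIBA89 lay near the line of equal response, with means of -2.46 and -1.62 in TRβ-/- liver against -1.98 and -1.96 in WT liver.

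**Figure D3:**
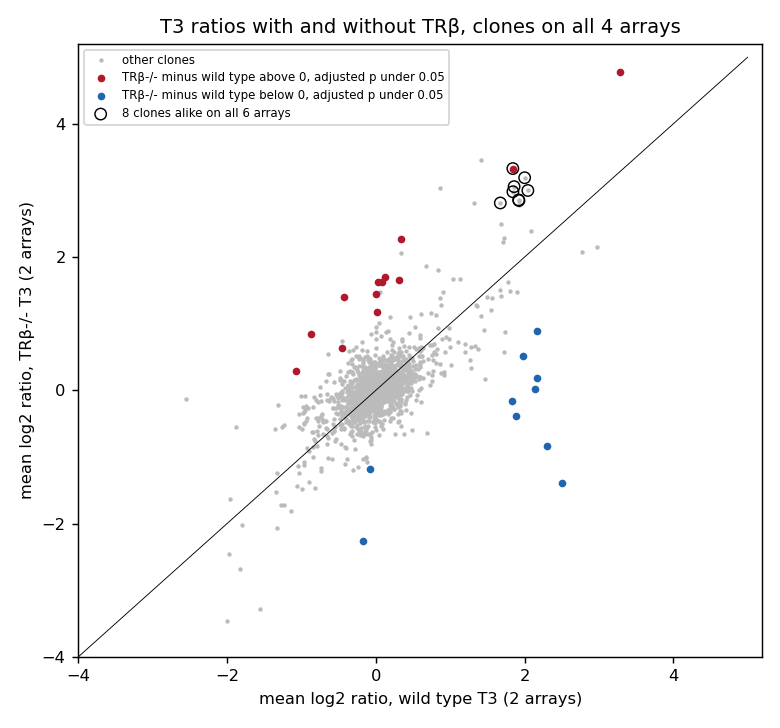
Mean log2 ratio over the 2 TRβ-/- T3 arrays (y axis) against the mean over the 2 WT T3 arrays (x axis) for 1625 clones; the line marks equal ratios, red and blue the 13 and 10 clones whose difference passed limma's test, and open circles the 8 clones that read alike. Blue clones at the right are 8 clones raised at least 2-fold in WT liver, with TRβ-/- means between -1.38 and 0.89.

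The T3 ratio differed between TRβ-/- and WT liver for 23 of 1625 clones (1.42%) at limma's adjusted p under 0.05, with 13 (0.8%) above and 10 (0.615%) below WT. With each array centred on its median these counts were 5 and 8, and with the arrays scaled to the same spread 4 and 6. They were 158 and 154 if both TRβ-/- arrays are read with the opposite sign. Of the clones named below for their difference, RGIAX93, RNACD35, RGIAG48, RNABM49 and RNAB26 lost the call in both settings, with limma's adjusted p of 0.0505 after centring and from 0.0637 to 0.0775 after scaling. Of the 10 clones below WT, 8 were raised at least 2-fold in WT liver and none of the 10 was past 2-fold positive in TRβ-/- liver. Over all 1625 clones 2.89% were past 2-fold positive in WT liver and 2.83% in TRβ-/- liver. A choice on the difference favours high WT and low TRβ-/- values, so these counts are no separate result. RNAC07 had the widest difference. It was at -1.32 and -1.45 in TRβ-/- liver against 2.28 and 2.73 in WT liver, a difference of -3.89 (SE 0.21, adjusted p = 0.00967), and so passed 2-fold in opposite directions in the 2 genotypes. RGIAM95 was at -1.11 and -0.55 in TRβ-/- liver against 2.17 and 2.43 in WT liver (difference -3.14, SE 0.24, adjusted p = 0.0202). RGIAI45 and RGIAX93 lay near 0 without TRβ: RGIAI45 was at -0.66 and -0.11 against 1.75 and 2.02, and RGIAX93 at -0.32 and 0.38 against 1.99 and 2.29. RGIAE69 and RNABJ25 had TRβ-/- means of -0.16 and 0.19 against WT means of 1.83 and 2.17. RNABI57 kept part of its ratio, with 0.84 and 0.94 in TRβ-/- liver against 2.10 and 2.25 in WT liver, a difference of -1.28.

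Of the 13 clones above WT, 10 were past 2-fold positive in TRβ-/- liver and 2 of these, RGIAX68 and RGIAI73, also in WT liver. The other 8 had WT means between -0.43 and 0.34. Here the choice on the difference favours high TRβ-/- and low WT values. RNACD35 was at 2.34 and 2.19 in TRβ-/- liver against 0.68 and -0.01 in WT liver (difference 1.93, SE 0.26, adjusted p = 0.0490). RGIAC46 was at 1.79 and 1.61 against 0.13 and 0.11 (difference 1.58, SE 0.16, adjusted p = 0.0324), and RNAB26 at 1.73 and 1.52 against -0.21 and 0.28. RGIAG48 had opposite signs, with 1.08 and 1.73 in TRβ-/- liver against -0.51 and -0.34 in WT liver. RNABM49, which passed 2-fold on array 1 only, was at 1.12 and 0.57 in TRβ-/- liver against -0.82 and -0.91 in WT liver. Over all 18 clones positive in TRβ-/- but not past the rule in WT liver, 14 were above 0 on both WT arrays and 6 within 0.5 of 0 on both, with a median of 1.55 in TRβ-/- liver and 0.54 in WT liver. The 12 negative clones of that kind had medians of -1.22 and -0.74, and 10 of them were below 0 on both WT arrays.

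The number of difference calls varied with the arrays used. Without WT array 1 limma called 2 clones, RNAC07 at -4.12 and RGIAN65 at 4.62, and without WT array 2 it called none, with 113 and 123 clones at an unadjusted p under 0.05 against 216 with all 4 arrays. Leaving out a WT array moved the difference itself to -3.26 and -3.01 for RGIAM95 and to -2.11 and -2.07 for RNABO81. It moved more for RNACD35 and RNAB26, whose WT arrays lay further apart (0.68 and -0.01, and -0.21 and 0.28). Without TRβ-/- array 1 limma called 25 clones above WT and 11 below, and without TRβ-/- array 2 it called 20 and 15. The untreated genotype arrays give further ratios for the same clones, and their labels name the untreated TRβ-/- and untreated WT livers that the T3 arrays also use, so the values are only set side by side. Their direction is not settled. RNAC07 was at -1.42 and -1.59 there, RGIAM95 at -1.63 and -1.92 and RGIAX93 at -2.17 and -2.91, while RGIAX68 was at 1.76 and 1.74, RGIAG48 at 1.56 and 1.61 and RNABM49 at 2.56 and 2.70. RNABO81 was at -0.80 and -0.65 and RGIAC46 at 0.23 and 0.16. Their part in the difference between genotypes was not tested.

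**Figure D4:**
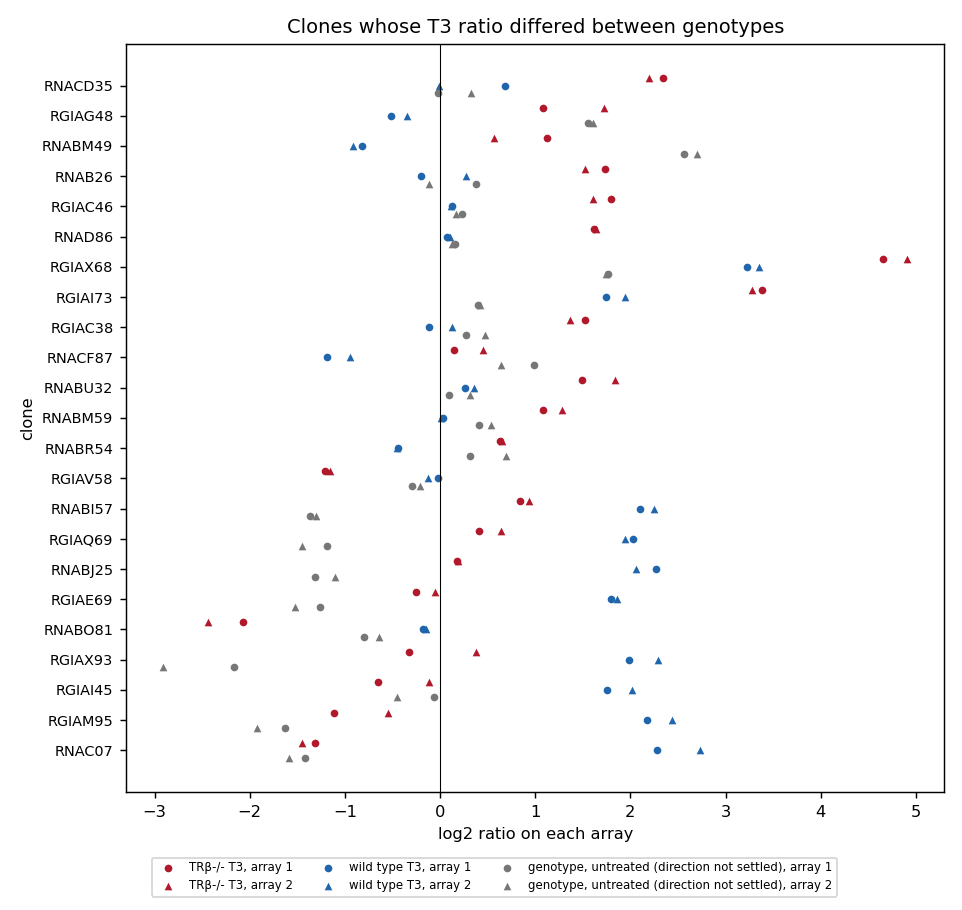
Log2 ratios of the 23 clones whose T3 ratio differed between genotypes (rows, ordered by the difference), on the TRβ-/- T3 arrays (red), the WT T3 arrays (blue) and the untreated genotype arrays (grey, direction not settled); circles are array 1 and triangles array 2. The lower 10 rows have TRβ-/- values left of the WT values and the upper 13 rows right of them, with RNAC07 and RNACD35 at the ends.

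Part of the WT response could not be followed on both TRβ-/- arrays. Of the 80 clones raised in WT liver on both arrays, 33 lacked a value on at least one TRβ-/- array: 14 had array 1 only, 1 had array 2 only and 18 had neither. RNABP75, with the highest WT mean of all clones past the rule (3.37), had 5.72 on TRβ-/- array 1 and no value on array 2, and RNABQ26 had 4.27 against a WT mean of 2.21. Among the 15 clones with a single TRβ-/- value, 8 were past 2-fold positive. Of all clones with a value on one TRβ-/- array alone, 30 of 635 on array 1 and 3 of 55 on array 2 were past 2-fold positive. The one clone with array 2 only, RNACA15, was at 0.0752 there against a WT mean of 1.32. Of the 25 clones lowered in WT liver 7 lacked a value on at least one TRβ-/- array, and the 2 lowest, RNABO13 and RNABI77, with WT means of -3.96 and -2.30, had none on either. RNACA77 was at -4.11 on TRβ-/- array 1 against a WT mean of -1.12. These clones have no spread between TRβ-/- arrays and enter none of the counts above.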

How the data were processed

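Liver RNA of hypothyroid mice was hybridised to rat cDNA clones in 2 colours, with 2 arrays for each of 3 comparisons. The authors measured spots with GenePix Pro, dropped those under 2 times background, took mean signal minus local background, and applied Lowess normalization from the SMA package (no version given). The deposited table used here holds log2 ratios, with a value for only part of the clones on each array. Intensities and dyes were not used here. The study's T3 rule was used: a log2 ratio of 1 or more, or of -1 or less, on each of both arrays. Spread and differences were tested with limma (lmFit, eBayes) on the 4 T3 arrays without a block, with Benjamini-Hochberg adjustment over the 1635 clones on both TRβ-/- arrays, or 1625 on all 4. The scripts were tested on simulated data. Clones named are the 10 highest and 10 lowest past the rule, the 5 most different on each side, the 5 most changed on each side in WT and the 2 on each side of the boundary. Others were named after their values were seen. Members and lists were chosen with earlier results of these data known. The planned gene lists and averages over clones of a gene were not run, since clones were not matched to genes here. Versions were R 4.3.3 with limma 3.58.1, and Python 3.11.15 with pandas 2.3.3, numpy 2.4.6 and matplotlib 3.10.9.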

Additional observations from a re-analysis of the deposited data

Results flagged for a closer look

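The T3 ratio differed between TRβ-/- and WT liver, by limma's test of the difference, for 13 clones above WT and 10 below it. Among the clones named here the log2 differences below WT were -3.89 for RNAC07, -3.14 for RGIAM95, -2.27 for RGIAI45, -2.11 for RGIAX93 and -2.09 for RNABO81. Those above WT were 1.93 for RNACD35, 1.83 for RGIAG48, 1.71 for RNABM49, 1.59 for RNAB26, 1.58 for RGIAC46, 1.496 for RGIAX68 and 1.49 for RGIAI73. All rest on reading both T3 comparisons in the deposited direction. RGIAX93, RNACD35, RGIAG48, RNABM49 and RNAB26 lost the call with centred arrays (limma's adjusted p = 0.0505) and with scaled arrays (0.0637 to 0.0775). Leaving out either WT array removed most or all calls, as described above. The differences of RGIAX68 and RGIAI73 were not followed clone by clone over these settings.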

How the results depend on the processing

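Counts are given as positive and negative. On the TRβ-/- arrays 46 and 25 clones were past 2-fold, 76 and 62 past 1.5-fold, and 23 and 8 past 3-fold. Single arrays, over the clones on both, gave 61 to 71 and 31 to 44. Centring, scaling, removing the median of each identifier group and using the mean of the arrays stayed within 1.5 times. Clones past the rule in both genotypes numbered 28 of the 47 and 13 of the 18 past it in WT liver. With a 1.5-fold rule they were 46 of 80 and 28 of 71, and with a 3-fold rule 15 of 28 and 4 of 6. When 1 array was left out they were 29 to 32 of 47 to 58, and 13 to 16 of 18 to 38. The shared part of the negative WT list was thus smaller with a 1.5-fold rule and with either WT array alone (15 of 29 and 16 of 38). The leave-out counts of this overlap, its scaling and its removal of group medians were chosen after seeing the data. Turning the sign of both TRβ-/- arrays gave 25 and 46 past the rule, 1 and 0 shared, and 158 and 154 differing between genotypes. Limma's 99 and 90 clones in TRβ-/- liver became 43 and 29 with the TRβ-/- arrays alone, and 43 to 99 and 29 to 84 when 1 array was left out. Its 13 and 10 differences became 27 and 18 with all 6 arrays in 1 fit, 5 and 8 with centred arrays and 4 and 6 with scaled arrays (10 of the 23 remained), and 0 to 25 and 0 to 15 when 1 array was left out, the lone array being taken to vary like the others. Array numbers mark no shared animal or day in the labels. With the array number as a replicate block limma called 193 and 178 clones in TRβ-/- liver and 33 and 29 differences, with all 23 among them, and the differences between array 1 and array 2 had a Spearman correlation of 0.480 between genotypes. Genes in place of clones were not run, and signal over background could not be examined.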
